A study of Homo sapiens with 8 samples.

Results

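Heterogeneous nuclear ribonucleoproteins (hnRNPs) are RNA-binding proteins that coat pre-mRNA as it is transcribed. They act in splicing, poly(A) site choice, export, stability and translation of RNA, and most of them are made in large amounts in dividing cells. The levels of the mRNAs of 10 hnRNP genes were examined: HNRNPA1, HNRNPA2B1, HNRNPC, HNRNPD, HNRNPF, HNRNPH1, HNRNPK, HNRNPL, HNRNPM and HNRNPU. They were chosen by name, as well-known members of the family, with earlier results of these data known. They were matched by Ensembl identifier among 78932 genes in the count tables. Of the 10, 9 had enough reads to be tested, and HNRNPL did not.

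The cells were HCT116, a human colorectal cancer line, in which NUDT21 carries a degradation tag. Its protein recognises UGUA elements in nascent RNA as part of cleavage factor Im (CFIm) and so takes part in the choice of poly(A) sites. In 4 libraries the cells were given DMSO, the solvent, together with JTE-607, and in 4 libraries dTAGV1, a degrader that brings the tagged protein to a ubiquitin ligase, together with JTE-607. JTE-607 inhibits CPSF73, the nuclease that cuts pre-mRNA at poly(A) sites, so every library came from inhibited cells and none shows dTAGV1 without the inhibitor. Doses, times and whether the tagged line is 1 clone are not given in the sources used here, and nothing says that replicates came from separate cultures, so p-values may measure technical spread only. The comparison asks which RNA levels differ with dTAGV1 while cleavage is inhibited.

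Libraries held 8649238 to 9977205 reads, of which 3447842 to 4291256 were assigned to a gene in sense orientation. NUDT21 mRNA went from 32.2 ± 2.81 CPM in DMSO libraries to 8.25 ± 2.62 CPM in dTAGV1 libraries (SD, n = 4 each), where CPM is counts in each 1000000 of a library after scaling. Protein, on which the tag acts, is outside these data. The 6 epithelial markers examined summed to 1683 to 1971 CPM with DMSO and 1353 to 1457 CPM with dTAGV1, and all 6 were detected. They did not move together. Group means were lower with dTAGV1 for KRT19 (786 to 499 CPM), KRT18 (408 to 269), KRT8 (175 to 135) and CLDN4 (168 to 121). EPCAM went up from 273 to 331 CPM, and CDH1 was at 57.9 and 58.4 CPM. KRT8 and CDH1 did not pass the test described below. The 4 leukocyte markers summed to at most 1.37 CPM and the 3 endothelial markers to at most 2.93 CPM. Of 4 fibroblast markers, COL1A1 was the 1 gene tested, with 17.3 ± 2.03 and 13.8 ± 1.77 CPM (SD, n = 4 each), while COL3A1 and DCN had no count. Reads that fit no gene on the sense strand were 30.1% to 33.7% of uniquely mapped reads with DMSO and 35.9% to 37.4% with dTAGV1, and the part of this shift in the results that follow was not tested. Unmapped reads were 27.7% to 28.9% with DMSO, 30.3% and 29.9% in dTAGV1 replicates 1 and 2, and 24.9% and 20.4% in dTAGV1 replicates 3 and 4.

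The UGUA element was looked for at the annotated 3′ ends of the hnRNP genes, since it is the sequence that CFIm binds. The last 100 bases of the principal GENCODE 29 transcript were searched on the sense strand for TGTA, as it is written in DNA. A match was found in 7 of the 10 genes, beside 55.6% of 10637 tested coding genes searched in the same way. HNRNPA2B1, HNRNPC and HNRNPF had no match, which says only that these letters are not in this window. The following 30-base stretches hold the match nearest to the transcript end, written 5′ to 3′ on the strand of the gene (GRCh38), with TGTA in capitals.

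HNRNPA1 (chr12:54287058-54287087, plus strand): ttttttttttaataaacTGTAtttaactta
HNRNPD (chr4:82352516-82352545, minus strand): tatgcttattttaTGTAaatctctcaataa
HNRNPH1 (chr5:179614235-179614264, minus strand): ttaaatctttcatTGTAttgtgatttcctt
HNRNPK (chr9:83968119-83968148, minus strand): gttgattgacaccTGTAaaatttgttgaaa
HNRNPL (chr19:38836420-38836449, minus strand): tttgtgctgcccaTGTActcttggcacatt
HNRNPM (chr19:8489039-8489068, plus strand): gcgcaatttttttTGTAgttgtggcatctt
HNRNPU (chr1:244850316-244850345, minus strand): acaggtacatattTGTAaaataagcattaa

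The matches began 13 bases before the annotated end in HNRNPA1, 35 in HNRNPD, 36 in HNRNPU, 49 in HNRNPL, 52 in HNRNPK, 63 in HNRNPM and 73 in HNRNPH1, and HNRNPL had a further match 96 bases before its end. In HNRNPA1 the element lay after the canonical poly(A) signal AATAAA, and in HNRNPD, HNRNPH1, HNRNPL and HNRNPM it lay before that signal. The principal HNRNPU transcript ends within the annotated gene, so other ends lie beyond it. AATAAA stood in the last 50 bases of 6 of the 10 transcripts. Gene counts sum all 3′ ends within the exons of a gene, so the use of single poly(A) sites is not resolved here.

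**Figure D1:**
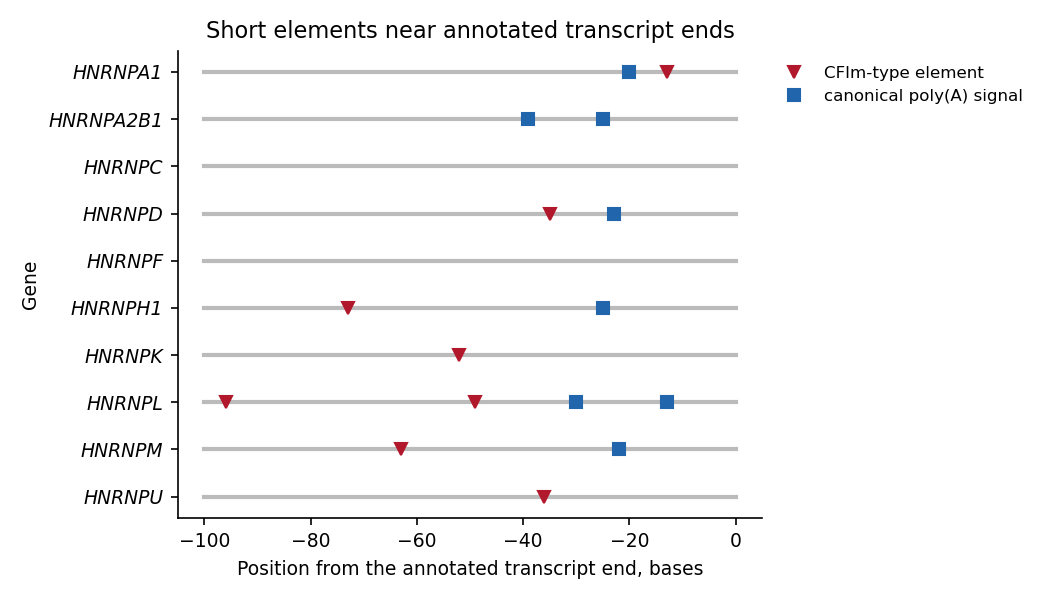
Positions of short elements in the last 100 bases of the principal annotated transcript of each hnRNP gene, in bases from the transcript end (x axis), with 1 line per gene. Triangles mark the start of TGTA and squares the start of AATAAA. HNRNPA1 is the gene in which the triangle lies nearest to the end, 13 bases from it, and HNRNPC and HNRNPF have neither element.

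With dTAGV1, 6 of the 9 tested hnRNP mRNAs fell and 1 rose. HNRNPD, HNRNPM, HNRNPF, HNRNPK, HNRNPU and HNRNPA2B1 changed by between -25.2% and -45.5%, while HNRNPC rose by 14.2%. The call of HNRNPC was lost in 11 of 21 alternative analyses. HNRNPA1 and HNRNPH1 did not pass the test. Over all 12618 tested genes, 57.9% passed at an adjusted p under 0.05 (edgeR quasi-likelihood test with Benjamini-Hochberg adjustment), 29.4% higher and 28.5% lower. Among the 4808 genes at or above the mean level of HNRNPH1, the lowest tested member, 66.1% passed, 36.6% higher and 29.6% lower. The median log2 fold change was -0.45 for the 9 hnRNP genes, 0.05 for those 4808 genes and 0.01 for all tested genes. The 10 genes together took 0.376% ± 0.0134 of the counts of DMSO libraries, against 0.289% ± 0.00273 in dTAGV1 libraries (SD, n = 4 each), and this share was lower in every dTAGV1 library than in each DMSO library. Levels and shares here are relative to the other counts of a library, so a fall is not a measured loss in absolute amount. In these bulk libraries, fewer cells that express a gene and less of its RNA per cell cannot be told apart.

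**Figure D2:**
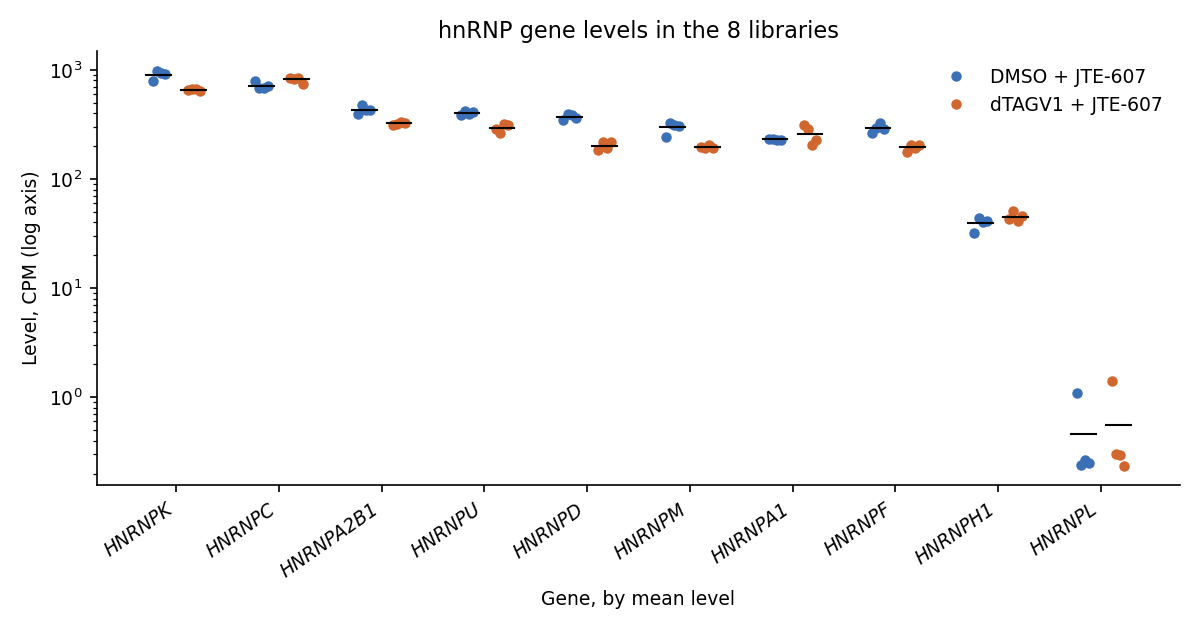
Level of each of the 10 hnRNP genes in each library, in CPM on a log axis, with genes in order of mean level. Blue points are the 4 DMSO libraries, orange points the 4 dTAGV1 libraries, and black lines the group means. HNRNPK lies at 789 to 987 CPM with DMSO and 635 to 669 CPM with dTAGV1, and HNRNPL lies at 1.42 CPM or below in all libraries.

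HNRNPD encodes AUF1, a protein that binds AU-rich elements in mRNA and takes part in mRNA decay (ENSG00000138668; GRCh38 chromosome 4, 82352498 to 82374503, minus strand, protein-coding). It had the largest fall of the 9. Its level was 345, 392, 383 and 366 CPM in DMSO replicates 1 to 4, and 183, 217, 192 and 217 CPM in dTAGV1 replicates 1 to 4. Each dTAGV1 library was lower than every DMSO library. The group means were 371 ± 20.6 and 202 ± 17.6 CPM (SD, n = 4 each), which the fit gave as -0.88 ± 0.07 on the log2 scale (SE, adjusted p = 3.91e-10 by edgeR). Groups as fully separated as these were found for 50.9% of all tested genes, and for 60.0% of those at or above the level of HNRNPH1.

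HNRNPM and HNRNPF fell by about the same amount. HNRNPM is a splicing regulator that binds GU-rich RNA (ENSG00000099783; chromosome 19, 8444767 to 8489114, plus strand, protein-coding). It had 245, 326, 313 and 307 CPM with DMSO and 195, 192, 206 and 192 CPM with dTAGV1. DMSO replicate 1 was the lowest of its group, and the groups did not overlap. HNRNPM had a log2 fold change of -0.60 ± 0.08 (SE, adjusted p = 6.25e-07 by edgeR). HNRNPF binds runs of guanines and acts in splicing and 3′ end processing (ENSG00000169813; chromosome 10, 43385617 to 43409166, minus strand, protein-coding). It had 267, 292, 326 and 289 CPM with DMSO and 177, 204, 193 and 205 CPM with dTAGV1, again without overlap. For HNRNPF the log2 fold change was -0.59 ± 0.08 (SE, adjusted p = 3.67e-07 by edgeR).

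HNRNPK, a poly(C)-binding protein with KH domains, had the highest mean level of the 10 in DMSO libraries, though HNRNPC was above it in DMSO replicate 1 (ENSG00000165119; chromosome 9, 83968083 to 83980616, minus strand, protein-coding). It had 789, 987, 937 and 914 CPM with DMSO and 653, 666, 669 and 635 CPM with dTAGV1. All dTAGV1 libraries were lower than the lowest DMSO library. HNRNPK had a log2 fold change of -0.47 ± 0.07 (SE, adjusted p = 3.62e-06 by edgeR). HNRNPU, also called scaffold attachment factor A, binds RNA and chromatin (ENSG00000153187; chromosome 1, 244840638 to 244864560, minus strand, protein-coding). Its level was 384, 421, 394 and 410 CPM with DMSO and 285, 266, 317 and 311 CPM with dTAGV1, without overlap. Its log2 fold change was -0.45 ± 0.07 (SE, adjusted p = 7.64e-06 by edgeR).

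HNRNPA2B1 and HNRNPA1 encode hnRNPs of the A/B type, each with a pair of RNA recognition motifs and a glycine-rich tail, which often repress splice sites. HNRNPA2B1 fell (ENSG00000122566; chromosome 7, 26173057 to 26201529, minus strand, protein-coding). It had 395, 479, 427 and 430 CPM with DMSO and 314, 317, 336 and 328 CPM with dTAGV1. Its groups did not overlap, and its log2 fold change was -0.42 ± 0.07 (SE, adjusted p = 1.67e-05 by edgeR). HNRNPA1 did not pass the test (ENSG00000135486; chromosome 12, 54280193 to 54287088, plus strand, protein-coding). It had 234, 233, 229 and 226 CPM with DMSO, which lie close together, and 315, 290, 204 and 227 CPM with dTAGV1. Of the dTAGV1 libraries, replicates 1 and 2 were above every DMSO library and replicate 3 was below them all. Its log2 fold change was 0.17 ± 0.11 (SE, adjusted p = 0.201 by edgeR). Set against DMSO, dTAGV1 replicates 1 and 2 alone gave 0.37 and replicates 3 and 4 alone gave -0.10. This split was made after the values were seen, so it is a description and not a test of HNRNPA1. Without dTAGV1 replicate 3 the value was 0.25 (edgeR, Benjamini-Hochberg adjusted p = 0.0227), so no direction is given for HNRNPA1. The 2 pairs of dTAGV1 libraries also differ in unmapped reads, as given above, and the part of this in the result was not tested.

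HNRNPC was the member that rose. Its protein binds uridine tracts as a tetramer and packages nascent RNA (ENSG00000092199; chromosome 14, 21209136 to 21269494, minus strand, protein-coding). It had 795, 679, 681 and 714 CPM with DMSO and 851, 827, 851 and 747 CPM with dTAGV1. The groups overlapped, because DMSO replicate 1 was above dTAGV1 replicate 4. As a log2 fold change this was 0.19 ± 0.07 (SE, adjusted p = 0.0222 by edgeR). The call was lost in 11 of 21 alternatives, among them scaling by library size (0.11, edgeR, Benjamini-Hochberg adjusted p = 0.164) and dropping any 1 of DMSO replicates 2 to 4 and dTAGV1 replicates 1 to 3, where the value was 0.16 to 0.18 (edgeR, Benjamini-Hochberg adjusted p from 0.0533 to 0.0914). Its direction was the same in all 21.

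HNRNPH1 encodes a close relative of the HNRNPF protein that also binds guanine runs (ENSG00000169045; chromosome 5, 179614178 to 179634784, minus strand, protein-coding). It had 117, 182, 150 and 166 counts with DMSO and 152, 170, 140 and 193 counts with dTAGV1. The groups overlapped, at 39.2 ± 5.11 and 45.3 ± 4.40 CPM (SD, n = 4 each). HNRNPH1 thus gave 0.20 ± 0.12 on the log2 scale (SE, adjusted p = 0.132 by edgeR). HNRNPL binds CA-rich RNA and regulates splicing (ENSG00000104824; chromosome 19, 38836388 to 38852347, minus strand, protein-coding). It had 4, 1, 1 and 1 counts with DMSO and 5, 1, 1 and 1 counts with dTAGV1, too few for a comparison.

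By mean CPM, HNRNPK was number 140, HNRNPC 143 and HNRNPF 704 of the 12618 tested genes, with 5 other members between them, while HNRNPH1 was number 4808. Calling the genes abundant thus goes against the counts of HNRNPH1 and HNRNPL. The 3′ end of HNRNPL overlaps ENSG00000268083, a protein-coding gene on the same strand, over 3791 bases, and reads that fit both genes are counted to neither. ENSG00000268083 itself had no count in any library. HNRNPA1 lies within the span of the noncoding gene ENSG00000258344 on the same strand, which had no count either. HNRNPA1 also has 76 annotated copies and pseudogenes in the tables, HNRNPC 13, HNRNPK 5, HNRNPH1 3, HNRNPD, HNRNPL and HNRNPM 2 each, and HNRNPF and HNRNPU 1 each. The copies with the most reads were HNRNPCP2, HNRNPH1P1 and HNRNPA1L3, with 42, 35 and 28 counts over all libraries. All copies together took few reads: 45 counts over all libraries for those of HNRNPA1, 57 for HNRNPC and 36 for HNRNPH1, which are 0.615%, 0.248% and 2.83% of the counts of the parent genes. Reads that map to a gene and its copy alike are not in these counts. The levels of HNRNPA1, HNRNPC, HNRNPH1 and the other members with copies are therefore uncertain.

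Reads of this assay come from near the 3′ end of a transcript, so counts do not scale with its length, and levels were set side by side without correction for length. In DMSO libraries the order of means was HNRNPK, HNRNPC, HNRNPA2B1, HNRNPU, HNRNPD, HNRNPM, HNRNPF, HNRNPA1 and HNRNPH1. HNRNPK and HNRNPC, at 907 and 717 CPM, overlapped in their ranges, as did HNRNPA2B1 with HNRNPU, HNRNPU with HNRNPD, and HNRNPM with HNRNPF. In dTAGV1 libraries HNRNPC came first, at 747 to 851 CPM, above HNRNPK in all libraries. HNRNPA2B1 and HNRNPU followed, and HNRNPA1, HNRNPD, HNRNPM and HNRNPF overlapped from neighbour to neighbour. The exchange of HNRNPK and HNRNPC at the top was not tested.

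Ratios between related genes were compared next, since a ratio within a library does not depend on how the library is scaled. Of 6 pairs, 4 showed no overlap between the groups, with the smallest p that 4 against 4 libraries can give (p = 0.0286 in a two-sided exact permutation test, 0.0429 after Benjamini-Hochberg adjustment over the 6). Groups without overlap were also found for 50.9% of all tested genes taken singly, and the share among other gene pairs was not computed. The members were chosen with earlier results of these data known, so these p-values describe the pairs and are not independent support. With counts irrespective of strand none of the 4 passed after adjustment (0.0571 for 3 of them, 0.0686 for HNRNPU to HNRNPUL1, from exact permutation tests). A ratio shows that 2 genes changed unequally, not which of them changed.

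The ratio of HNRNPA1 to HNRNPA2B1 on the log2 scale went from -0.90 ± 0.12 in DMSO libraries to -0.35 ± 0.34 in dTAGV1 libraries (SD, n = 4 each), a difference of 0.56. It was higher in each of the 4 dTAGV1 libraries than in any DMSO library, but by 0.28 in replicates 3 and 4 alone and by 0.84 in replicates 1 and 2 alone. HNRNPH1 to HNRNPF rose from -2.90 ± 0.16 to -2.10 ± 0.11 (SD, n = 4 each), a difference of 0.80 without overlap. HNRNPC to RALY, a related gene, rose from 4.02 ± 0.23 to 4.84 ± 0.22 (SD, n = 4 each), a difference of 0.82 without overlap. RALY itself fell, from 44.2 ± 4.56 to 28.6 ± 2.65 CPM (SD, n = 4 each).

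HNRNPU to HNRNPUL1, an HNRNPU-like gene, was 0.58 in DMSO replicates 1 to 3 and 0.57 in replicate 4. With dTAGV1 it was -0.21, -0.25, 0.19 and 0.15 in replicates 1 to 4, a difference of -0.61. The difference was -0.40 with counts irrespective of strand. This pair thus split into the same pairs of dTAGV1 libraries as HNRNPA1. HNRNPD to its paralogue HNRNPDL differed by -0.19, with overlapping groups (exact permutation p = 0.0571, adjusted 0.0686). The ratio of HNRNPL to HNRNPLL rests on 1 to 5 counts of HNRNPL and cannot be read (exact permutation p = 0.143, adjusted 0.143).

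**Figure D3:**
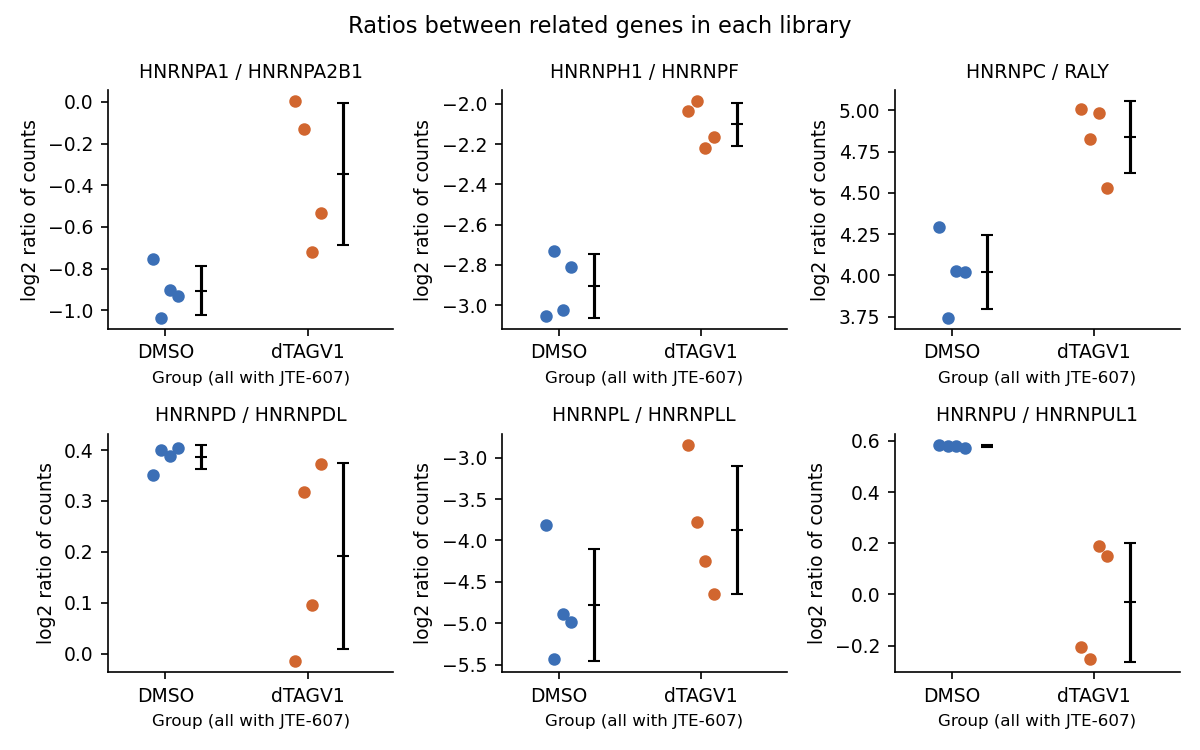
Log2 ratio of counts for 6 pairs of related genes (1 panel each), in the 4 DMSO (blue) and 4 dTAGV1 (orange) libraries, all with JTE-607; black marks give the mean and SD, and y axes differ between panels. The groups do not overlap for HNRNPA1 to HNRNPA2B1, HNRNPH1 to HNRNPF, HNRNPC to RALY and HNRNPU to HNRNPUL1 in these sense-strand counts; none of the 4 passed after adjustment with counts irrespective of strand.

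The other hnRNP genes were examined as context, from a list of 17 that were all tested. Of these, 12 were lower with dTAGV1, 2 were higher and 3 did not pass, and their median log2 fold change was -0.42, where 28.5% of all tested genes were lower and 29.4% higher. HNRNPH2, which like HNRNPH1 binds guanine runs, fell most, from 102 ± 6.77 to 56.0 ± 10.1 CPM (SD, n = 4 each), or -0.87 as a log2 fold change. HNRNPUL2 had -0.76 and HNRNPLL, the paralogue of HNRNPL, -0.71. HNRNPDL had -0.69. PCBP2 and HNRNPH3 rose, with log2 fold changes of 0.43 and 0.39. The value of PCBP2 was 0.95 with counts irrespective of strand. PCBP2, a poly(C)-binding protein, went from 352 ± 21.5 to 475 ± 13.1 CPM (SD, n = 4 each), whereas its relative PCBP1 had a log2 fold change of -0.40. HNRNPUL1 did not pass, at 0.16 (edgeR, Benjamini-Hochberg adjusted p = 0.0653), and it passed without dTAGV1 replicate 4, at 0.18 (edgeR, Benjamini-Hochberg adjusted p = 0.0460). In the split made after the values were seen, HNRNPUL1 had 0.24 with dTAGV1 replicates 1 and 2 alone and 0.05 with replicates 3 and 4 alone. It turned sign with counts irrespective of strand, at -0.12, so no direction is given for it.

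**Figure D4:**
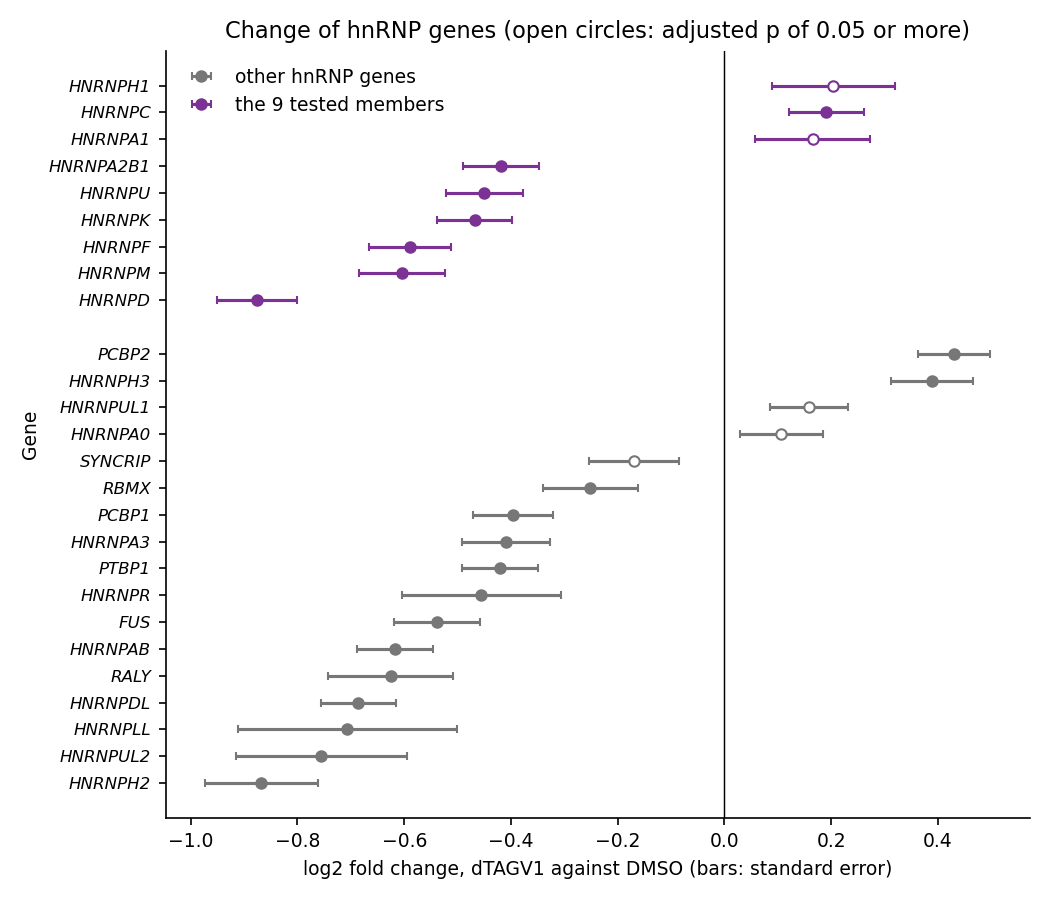
Log2 fold change of dTAGV1 against DMSO (x axis; bars are the standard error) for the 9 tested hnRNP genes of the main set (purple) and 17 other hnRNP genes (grey). Filled circles passed at an adjusted p under 0.05. Of the purple genes, 6 lie left of 0, with HNRNPD farthest at -0.88, and of the grey genes, 13 lie left of 0, with HNRNPH2 farthest at -0.87.

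Other nuclear RNA-binding proteins and the factors that import or methylate hnRNPs were followed too. Of 14 tested genes of the first kind, 10 were lower and 3 higher, with a median log2 fold change of -0.31, again beside 28.5% lower and 29.4% higher among all tested genes. The largest falls were those of TARDBP, the gene of TDP-43, at -0.65, of NONO, a paraspeckle protein, at -0.52, and of TAF15 at -0.40. EWSR1, which like TAF15 belongs to the FET family, rose by 0.34, PSPC1 by 0.31 and SAFB2 by 0.20. SAFB2 did not pass in 11 of 21 alternatives. EWSR1, PSPC1 and TAF15 did not pass against a fold change of 1.2 (adjusted p = 0.112, 0.238 and 0.0858 by edgeR), nor did TAF15 with dTAGV1 replicates 3 and 4 alone, at -0.30 (adjusted p = 0.0587 by edgeR). Of 6 tested import receptors and arginine methyltransferases, 4 were lower and 0 higher, beside the same shares. PRMT3 had -0.86, on 15 to 43 counts in a library, the import receptor gene TNPO2 -0.56 and the methyltransferase gene CARM1 -0.55. The import receptor gene TNPO1 did not pass, at -0.04 (edgeR, Benjamini-Hochberg adjusted p = 0.639), nor did PRMT5, at 0.02 (adjusted p = 0.868 by edgeR). MATR3 and PRMT6 had at most 7 and 11 counts in a library and were not tested. Whether their reads were lost to overlapping genes was not examined.

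Genes next to the hnRNP genes were then compared with them. GENCODE 29 has 19 genes that overlap 1 of the 10 or lie within 5 kb, and 8 of these were tested. In 4 of the 8 pairs the genes lie head to head, with starts at most 367 bases apart. HNRNPK and RMI1, which acts in the resolution of recombination intermediates, start 95 bases apart and both fell. RMI1 had 84, 132, 92 and 106 counts with DMSO and 37, 34, 52 and 64 counts with dTAGV1, which is -1.04 ± 0.17 as a log2 fold change (SE, adjusted p = 8.07e-06 by edgeR). HNRNPA2B1 and CBX3, which encodes heterochromatin protein HP1 gamma, start 367 bases apart and both fell. CBX3 went from 710 ± 51.9 to 576 ± 74.6 CPM (SD, n = 4 each), or -0.30 on the log2 scale, with overlapping groups. The value for CBX3 was -0.17 with dTAGV1 replicates 1 and 2 alone and -0.47 with replicates 3 and 4 alone, and it did not pass against a fold change of 1.2 (adjusted p = 0.234 by edgeR).

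HNRNPA1 and CBX5, the gene of HP1 alpha, start 60 bases apart and did not give the same result. CBX5 fell from 152 ± 15.5 to 107 ± 8.56 CPM (SD, n = 4 each), or -0.50 on the log2 scale, while HNRNPA1 did not pass. HNRNPD-DT, a noncoding gene that starts 202 bases from HNRNPD, had 10 to 13 counts in a library and did not pass, at 0.18. Among the other 4 neighbours, the assembly factor gene COX20 (0.32, overlapping HNRNPU), the transcription factor gene NFE2L3 (0.50, overlapping HNRNPA2B1) and RUFY1 (0.51, near HNRNPH1) rose. LINC00641, a noncoding gene near HNRNPC, fell, at -0.83. COX20 did not pass without dTAGV1 replicate 3, at 0.21 (edgeR, Benjamini-Hochberg adjusted p = 0.0693), with dTAGV1 replicates 1 and 2 alone, at 0.13 (adjusted p = 0.266), or against a fold change of 1.2 (adjusted p = 0.213). NFE2L3 did not pass with dTAGV1 replicates 3 and 4 alone, at 0.33 (adjusted p = 0.0530 by edgeR).

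**Figure D5:**
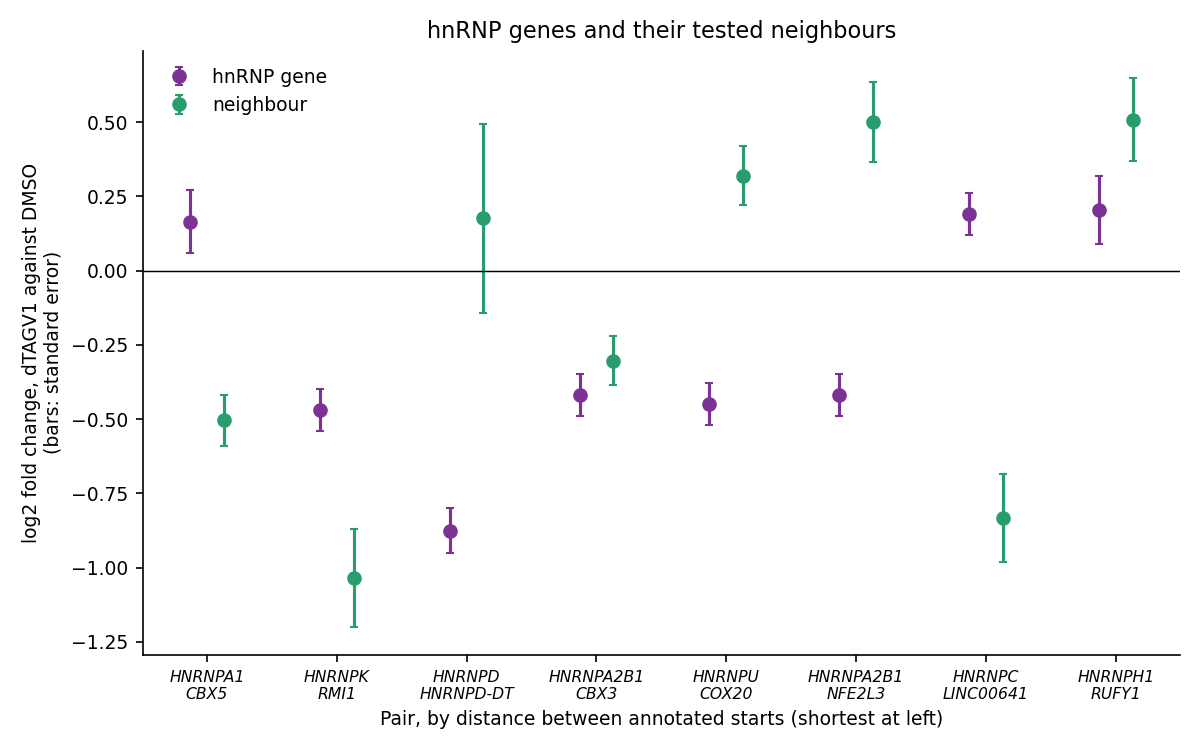
Log2 fold change of dTAGV1 against DMSO (y axis; bars are the standard error) for 8 pairs of an hnRNP gene (purple) and a tested gene that overlaps it or lies within 5 kb (green), in order of the distance between annotated starts. HNRNPK with RMI1 and HNRNPA2B1 with CBX3 lie below 0 together, while HNRNPA1 lies at 0.17 and CBX5 at -0.50.

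Reads on the strand opposite to the hnRNP genes numbered at most 17 in a library except at HNRNPU and HNRNPA2B1. HNRNPU had 502, 609, 607 and 643 opposite-strand counts with DMSO and 520, 632, 772 and 820 with dTAGV1. COX20, which overlaps HNRNPU on that strand over 4420 bases, had 497, 605, 597 and 642 sense counts with DMSO and 518, 617, 763 and 806 with dTAGV1, so both series were close in every library. Counts of each strand were scaled and tested separately, and the sense counts of COX20 passed, at 0.32 (adjusted p = 0.00861 by edgeR). The opposite-strand log2 fold change of HNRNPU did not pass, at 0.20 ± 0.11 (SE, adjusted p = 0.157 by edgeR), where 48.4% of 3324 genes tested on that strand passed. It passed with library-size scaling, at 0.26 (adjusted p = 0.0433 by edgeR), and without dTAGV1 replicate 1, at 0.33 (adjusted p = 0.00709 by edgeR). HNRNPA2B1 had 20 to 35 opposite-strand counts in a library, and its value of -0.26 did not pass (adjusted p = 0.371 by edgeR).

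Promoter sequences are shown for the genes that these comparisons turn on. HNRNPK and HNRNPA2B1 fell with their divergent neighbours, HNRNPD fell most, and HNRNPC rose, though its call was lost in 11 of 21 alternatives. Each runs from 250 bases before to 50 bases after a RefSeq start (GRCh38.p14), 5′ to 3′ on the strand of the gene, which is minus for all 4. RefSeq promoters were matched for 9 of the 10 genes, all but HNRNPA1. For HNRNPK, which has 2 entries, the one that holds the start of RMI1 is shown. Capitals mark matches on either strand to 6 motifs. The TATA box was searched for as TATAAA and the CCAAT box by the letters of its name. The GC box was taken as GGGCGG, while the E-box was written as CACGTG in this search. An ETS-type motif was given by the letters CCGGAAG, and the YY1-type motif is spelled GCCATNTT with any base at N. None of these is contained in another.

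HNRNPK (chr9:83980566-83980865): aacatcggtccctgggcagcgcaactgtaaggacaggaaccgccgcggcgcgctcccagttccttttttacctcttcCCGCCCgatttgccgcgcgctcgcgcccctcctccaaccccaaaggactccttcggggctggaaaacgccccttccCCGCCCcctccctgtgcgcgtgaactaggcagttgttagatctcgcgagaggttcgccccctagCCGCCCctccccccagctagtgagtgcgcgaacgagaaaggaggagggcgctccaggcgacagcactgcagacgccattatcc
HNRNPA2B1 (chr7:26200697-26200996): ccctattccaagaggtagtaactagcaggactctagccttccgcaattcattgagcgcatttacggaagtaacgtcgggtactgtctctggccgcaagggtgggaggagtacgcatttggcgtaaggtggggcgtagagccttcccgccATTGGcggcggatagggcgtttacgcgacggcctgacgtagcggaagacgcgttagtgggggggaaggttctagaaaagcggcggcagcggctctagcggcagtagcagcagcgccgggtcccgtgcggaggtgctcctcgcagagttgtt
HNRNPD (chr4:82373942-82374241): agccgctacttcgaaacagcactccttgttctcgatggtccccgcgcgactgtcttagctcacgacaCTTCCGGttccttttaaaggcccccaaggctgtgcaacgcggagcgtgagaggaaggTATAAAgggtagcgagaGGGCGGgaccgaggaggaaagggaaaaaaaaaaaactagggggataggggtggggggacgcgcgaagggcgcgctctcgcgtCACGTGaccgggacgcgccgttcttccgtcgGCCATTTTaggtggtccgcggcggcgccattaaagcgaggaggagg
HNRNPC (chr14:21269393-21269692): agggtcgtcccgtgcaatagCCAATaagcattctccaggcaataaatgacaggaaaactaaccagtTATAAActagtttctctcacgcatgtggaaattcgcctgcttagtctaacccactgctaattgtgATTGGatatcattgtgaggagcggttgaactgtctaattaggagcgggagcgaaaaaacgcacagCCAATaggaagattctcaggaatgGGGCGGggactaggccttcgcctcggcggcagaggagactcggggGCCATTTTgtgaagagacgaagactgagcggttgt

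The HNRNPK entry shown holds 3 GC boxes, and it was chosen because the annotated start of RMI1, at position 83980711, lies within it. The other HNRNPK entry holds 2 CCAAT boxes and no GC box. HNRNPD has a TATA box, a GC box, an E-box, an ETS-type and a YY1-type motif. The HNRNPC promoter has 3 CCAAT boxes, a TATA box, a GC box and a YY1-type motif. Of the 15 promoters of the 9 genes, 9 held the CCAAT box and 9 the GC box, beside 34.6% and 45.0% of 35116 RefSeq promoters of the same length, and 3 held the YY1-type motif (HNRNPC, HNRNPD and HNRNPM), beside 6.58%. The TATA box was found for HNRNPC and HNRNPD (11.5% of all promoters), the E-box for HNRNPD and HNRNPM (7.26%) and the ETS-type motif for HNRNPD and HNRNPF (10.3%). These matches are letters in the sequence and show no binding.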

How the data were processed

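RNA was measured by sequencing of mRNA 3′ ends with the Lexogen QuantSeq forward kit, per the labels' protocols. The deposited values are whole-number counts of reads per gene, made by the authors. The submitters' processing notes name FastQC, fastp, STAR, HTSeq and DESeq2 and the build GRCh38, without roles or versions, and the layout is that of the per-gene output of STAR. The annotation release, and whether molecular identifiers were used, are not given in the sources used here. Sense-strand counts were used. The 4 totals of reads given to no gene, 56.7% to 62.8% of the reads of a library, stayed out of library sizes and tests. Symbols were found for the members from a table of gene names, and coordinates come from GENCODE 29.

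Tests used edgeR 4.0.16 in R 4.3.3 with filterByExpr, TMM scaling, robust quasi-likelihood fits and Benjamini-Hochberg adjustment over all 12618 tested genes. Ratios used counts plus 0.5. Standard errors are the absolute log2 fold change over the square root of F. The members and lists were chosen with earlier results of these data known. All members were named, and from each list up to 3 passing genes in each direction, with further genes of the 6 pairs. PCBP1, TNPO1 and PRMT5 were named after their values were seen. HNRNPUL1 and HNRNPUL2, whose symbols resemble those of copies, were treated as separate genes. Alternatives were DESeq2 1.42.0, limma-voom 3.58.1, other scalings, filters, dispersions, strand and fold thresholds, copies summed with their parents, a replicate term, and each library left out. Fits with dTAGV1 replicates 1 and 2, or 3 and 4, alone were added after seeing the data.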

Additional observations from a re-analysis of the deposited data

Results flagged for a closer look

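Among 86 groups of 4 libraries examined, 4 held a library far from the other 3, where chance flags about 1 in 20 groups. NFE2L3, which overlaps HNRNPA2B1 on the other strand, had 54.4 CPM in dTAGV1 replicate 1 and 36.5 to 39.3 CPM in the other dTAGV1 libraries. PRMT3 had 6.95 CPM in dTAGV1 replicate 2 and 4.25 to 4.49 CPM in the others. HNRNPL had 1.09 CPM in DMSO replicate 1 and 0.241 to 0.267 CPM in the other DMSO libraries, and 1.42 CPM in dTAGV1 replicate 1 and 0.237 to 0.302 CPM in the other dTAGV1 libraries, which rest on 4 and 5 counts against 1 each. No level of the 9 tested hnRNP genes and none of the 6 ratios stood apart in this way.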

How the results depend on the processing

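The 6 hnRNP genes that fell kept their direction and call in all 126 alternative values. Their log2 fold changes ran from -0.95 to -0.84 for HNRNPD, -0.69 to -0.56 for HNRNPM, -0.66 to -0.54 for HNRNPF, -0.54 to -0.43 for HNRNPK, -0.57 to -0.36 for HNRNPU and -0.49 to -0.37 for HNRNPA2B1. The number of members that rose was 0 with library-size scaling, without a filter, with counts irrespective of strand, against a fold change of 1.2 and with dTAGV1 replicates 3 and 4 alone; it was 2 with dTAGV1 replicates 1 and 2 alone, and 0 to 1 when each library was left out. Requiring 100 counts on average, 4120 genes passed, 2131 higher and 1989 lower, since fewer genes were tested. Leaving out each library gave 6861 to 7232 genes. With all reads as the denominator, the share of the 10 genes differed by -0.0405 percentage points, in place of -0.0869, since the denominator is larger.

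Counts irrespective of strand gave ratio differences of 0.56 for HNRNPA1 to HNRNPA2B1, 0.80 for HNRNPH1 to HNRNPF, 0.81 for HNRNPC to RALY and -0.40 for HNRNPU to HNRNPUL1, none of which passed after adjustment, although the first 3 kept the smallest exact permutation p of 0.0286. In the same order they were 0.84, 0.89, 0.90 and -0.81 with dTAGV1 replicates 1 and 2 alone, and 0.28, 0.71, 0.74 and -0.41 with replicates 3 and 4 alone. Leaving out each library gave 0.44 to 0.68, 0.75 to 0.86, 0.72 to 0.92 and -0.68 to -0.54. With so few libraries, the fits that leave out libraries cannot pass the threshold (the smallest exact permutation p is 0.0571 for 3 against 4).

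With the replicate number as a replicate block, 7434 genes passed, and the same 7 hnRNP genes kept their calls. Deviations of same-numbered libraries correlated at 0.131, -0.0176, 0.0232 and 0.0340. Replicate 1 was the one number to correlate best with itself from the side of both groups. DMSO replicate 3 also correlated best with dTAGV1 replicate 3, but the latter correlated better with DMSO replicate 4, at 0.0433. The numbers were not taken to pair the libraries. Counts limit HNRNPH1, with 117 to 193 in a library, and HNRNPL.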
